A study of Mus musculus with 41 samples.

Results

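Epidermal stem cells taken at dawn (ZT0) were compared with cells taken late at night (ZT20) in mice on a control diet. The comparison used 8 of the 41 arrays in the series, chosen by their titles, with 4 arrays at ZT0 and 4 at ZT20. Zeitgeber time (ZT) counts hours from lights on, so ZT20 falls in the dark phase, when mice are active. All 8 arrays hold RNA of female C57B6/J mice, wild type and 15 weeks old, whose epidermis was collected after 7 weeks of free access to the control diet, begun at 8 weeks of age. The series also holds a high fat diet arm, and its 3 arrays at ZT0 and 4 at ZT20 are used here to ask how the same contrast looked in other mice. Mice killed on the same day belonged to 1 time point, so collection day and time point coincide and cannot be told apart in any value below. The labels number the arrays as replicates and do not tie each to its own mouse, so the p-values refer to the spread among arrays, which may be technical. Each SE and p-value comes from a fit over all 41 arrays in 12 diet and time groups. It therefore pools the spread within all of these groups, beyond the 8 arrays compared.

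The epidermis renews itself from basal keratinocytes and from stem cells in the hair follicle bulge. A circadian clock runs in these cells: the activators BMAL1 (Arntl) and CLOCK drive the Per and Cry repressors, which in turn shut the activators down, and factors such as DBP, TEF and NFIL3 pass the rhythm on to other genes. DNA replication and mitosis are also timed over the day in mouse epidermis. Besides the clock, NF-kB, a transcription factor held in check by IkB-alpha (Nfkbia), and the immediate early genes respond within hours to stress, cytokines and growth factors.

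Values are deposited log2 RMA levels, where RMA removes background, puts the arrays on 1 scale and combines the probes of each probe set. A difference of 1 is a 2-fold change. Array medians lay between 6.41 and 6.43, and correlations between arrays ran from 0.992 to 0.994 within ZT0, from 0.989 to 0.994 within ZT20 and from 0.979 to 0.988 between the times. The first principal component of the 8 arrays held 50.6% of the variance and placed every ZT0 array at one end and every ZT20 array at the other. The signal over background of a probe set is unknown here. With 4 arrays a group, the array number sets the precision.

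The labels describe the cells only as epidermal stem cells, without a sorting marker, so the cell type was checked on marker genes. Basal keratin genes were at 12.7 (Krt5) and 12.7 (Krt14) over the 8 arrays, the basal adhesion gene Col17a1 at 12.7 and the bulge keratin Krt15 at 12.02. Levels of different probe sets are not comparable with each other, so the markers of other cells are also given as measured. The bulge stem cell surface marker Cd34 was at 5.49 at ZT0 and 4.76 at ZT20, the pan-leukocyte gene Ptprc at 4.50, the Langerhans cell lectin Cd207 at 5.84, the fibroblast collagen Col1a1 at 6.24 and the endothelial gene Pecam1 at 6.17. Other markers in the same lists were higher, up to 9.85 among the Langerhans and leukocyte genes and 9.79 among the fibroblast genes. List medians, given as measured, were 11.5 for basal keratinocyte, 9.27 for suprabasal and 7.27 for hair follicle bulge genes. They were 7.17 for Langerhans and leukocyte, 6.41 for fibroblast and 5.36 for endothelial genes. The bulge genes ran from 5.12 (Cd34) to 12.02 (Krt15). The share of other cells was not tested. Krt10, a keratin of suprabasal cells, was at 11.99. In bulk RNA, fewer cells of a type and less RNA per cell cannot be told apart.

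Across 17097 genes, 2464 (14.4%) differed between ZT0 and ZT20 (limma, Benjamini-Hochberg adjusted p under 0.05, called or passed below). Of these, 1331 (7.78% of genes tested) were higher at ZT0 and 1133 (6.63%) were lower, and 4688 genes had an unadjusted p under 0.05. The higher genes made up 54.0% of the calls with the values as deposited and 46.8% after the array medians of all probe sets were subtracted. The falls were the larger changes. At least 2-fold lower at ZT0 were 158 called genes and at least 2-fold higher 46, while 17 were at least 4-fold lower and 0 were at least 4-fold higher. The median difference over all genes was 0.02. For 1953 genes (11.4%) the call came with groups that did not overlap, of 3021 (17.7%) whose groups did not overlap at all.

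**Figure D1:**
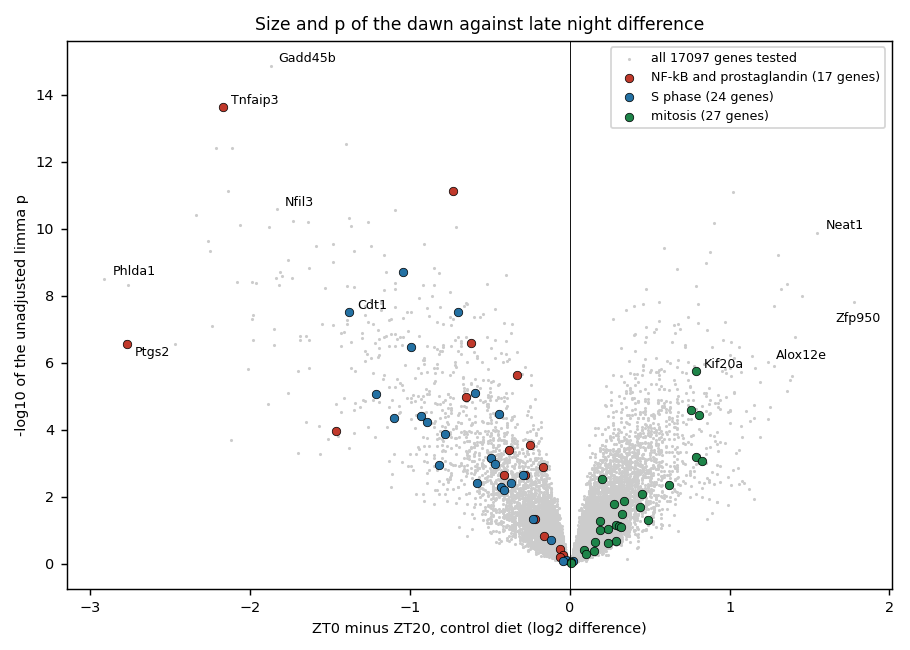
Difference between ZT0 and ZT20 in the control diet (x axis, log2, positive when higher at ZT0) against -log10 of the unadjusted limma p (y axis) for all 17097 genes, with 3 gene lists coloured. The NF-kB and prostaglandin genes and nearly all S phase genes lie left of 0, the mitosis genes lie right of 0, and the left arm reaches to -2.91 while the right arm ends at 1.78.

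The largest falls at ZT0 were those of Phlda1, Nipal1, Ptgs2 and Ifi202b. Phlda1, a pleckstrin homology-like domain gene induced by growth factor signalling, had log2 levels of 5.27, 6.88, 5.62 and 6.42 at ZT0 and of 9.29, 8.89, 8.38 and 9.30 at ZT20. It fell by 2.91 ± 0.36 (SE, adjusted p = 1.13e-06), or 7.54-fold. Nipal1, a magnesium transporter family gene, fell by 2.78 ± 0.42 (adjusted p = 2.32e-05). Ifi202b, an interferon-inducible p200 family gene, fell by 2.76 ± 0.35 (adjusted p = 1.46e-06). It belongs to a multigene family whose members its probe set may not separate. The other genes among the 15 largest falls ran from -2.47 for Pmp22, a growth arrest gene first known from myelin, to -2.08 for Maff, a small MAF transcription factor. They included Cldn4, a tight junction claudin, at -2.26 ± 0.25 (adjusted p = 1.89e-07), Azin1, an activator of polyamine synthesis, at -2.25 ± 0.25, and Dio2, the deiodinase that activates thyroid hormone, at -2.12 ± 0.51 (adjusted p = 0.00413). Ifrd1, a transcriptional co-regulator, changed by -2.34 ± 0.24 and Gem, a small GTPase, by -2.24 ± 0.32. Uap1, an enzyme of the UDP-GlcNAc pathway, changed by -2.14 ± 0.20, but its other probe sets gave -0.37 and -0.50.

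**Figure D2:**
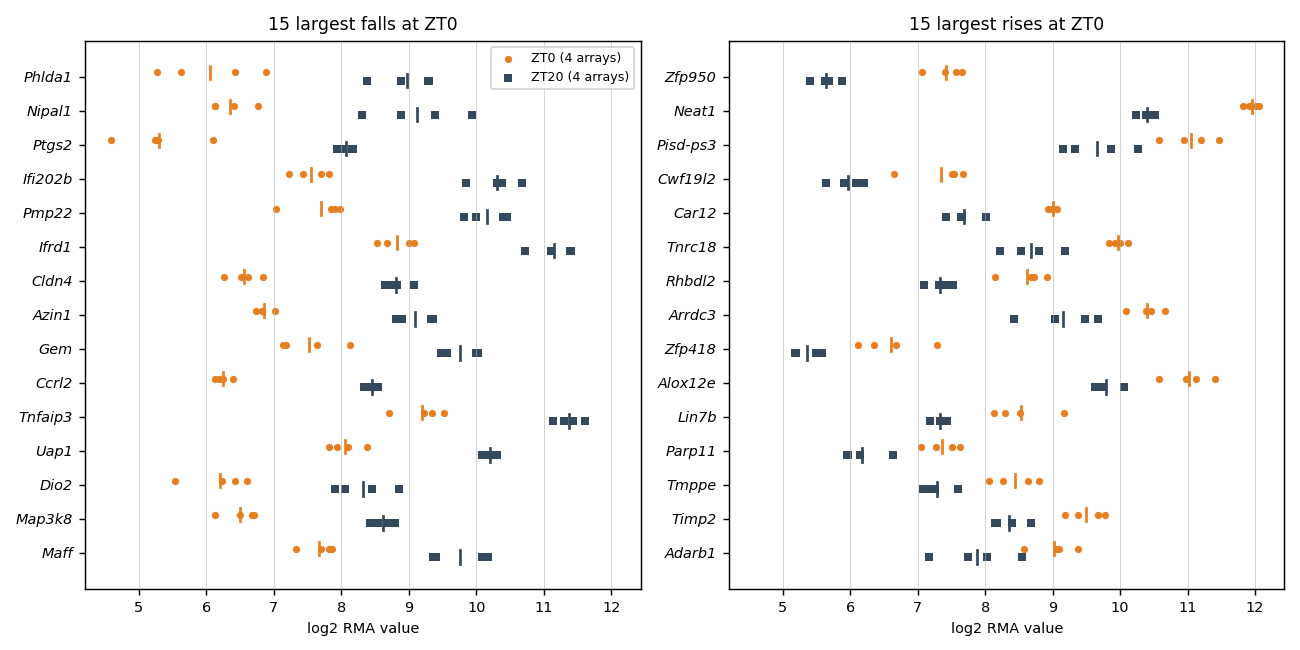
Log2 RMA level (x axis) on each of the 4 ZT0 arrays (orange circles) and 4 ZT20 arrays (blue squares) for the 15 largest falls (left) and 15 largest rises (right), with vertical ticks at the group means. The genes were chosen for groups that do not overlap, and within-group spread is wide for Phlda1, whose ZT0 arrays run from 5.27 to 6.88, and narrow for Neat1, whose ZT0 arrays run from 11.82 to 12.06.

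Of the 17 NF-kB and prostaglandin genes measured, 12 were lower at ZT0 and 0 higher, against 6.63% of all genes called lower. All 17 had a negative difference, with a median of -0.33, and 10 had groups that did not overlap, as did 17.7% of all genes. The mean level of the list lay between 7.33 and 7.55 on the ZT0 arrays and between 8.07 and 8.17 on the ZT20 arrays. Ptgs2, the inducible cyclooxygenase of prostaglandin synthesis, was at 5.24, 6.09, 4.58 and 5.28 at ZT0 and at 8.16, 7.94, 8.02 and 8.17 at ZT20. Every ZT0 array was below every ZT20 array, and it fell by 2.77 ± 0.43 (adjusted p = 2.73e-05), although its other probe set fell by 0.97. Tnfaip3, the ubiquitin-editing enzyme A20 that switches NF-kB signalling off, was at 9.23, 9.34, 8.71 and 9.52 at ZT0 and at 11.30, 11.61, 11.14 and 11.43 at ZT20. It fell by 2.17 ± 0.17 (adjusted p = 2.01e-10), with -2.07 in its other probe set.

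Nfkbia, the inhibitor that holds NF-kB in the cytoplasm, was at 11.37, 11.46, 11.25 and 11.64 at ZT0 and at 12.26, 12.19, 12.07 and 12.12 at ZT20. It fell by 0.73 ± 0.07 (adjusted p = 1.68e-08), less than Tnfaip3, and the arrays of each time lay close together. Birc3, a ubiquitin ligase of the same pathway, fell by 0.62 ± 0.10 (adjusted p = 2.56e-05). Icam1, a leukocyte adhesion molecule named here after its values were seen, fell by 1.46 ± 0.33 (adjusted p = 0.00267). Cxcl2, a neutrophil chemokine, fell by 0.33 ± 0.06 (adjusted p = 1.39e-04) from levels of 4.51 to 4.72 at ZT20 to levels of 4.27 to 4.35 at ZT0. Of the genes outside the list, Map3k8, a kinase of the NF-kB and ERK pathways, was at 6.13, 6.71, 6.68 and 6.49 at ZT0 and at 8.42, 8.80, 8.54 and 8.68 at ZT20, and fell by 2.11 ± 0.18 (adjusted p = 1.37e-09). With only the 8 arrays of the comparison in the fit, 7 of the 17 list members passed instead of 12.

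NF-kB binds a short sequence, searched here as GGGA, any base, then TTTCC. Within 250 bases upstream of the start, on either strand, 4 of the 15 list members with a RefSeq promoter held it (26.7%: Cxcl1, Cxcl2, Il6 and Nfkbia), against 0.337% of all 27025 promoters. It was in 0.431% of the 928 promoters of genes called lower, in 0.827% of the 1088 of genes called higher and in 0 of the 11 of the 15 largest falls. The list was made up in part of known NF-kB targets, and the genes called lower as a whole held the motif no more often than those called higher. The 2 with the smallest adjusted p are shown because both genes fell, with the match in capitals, 5′ to 3′ on the gene's strand, build GRCm38.p6. The Nfkbia window is chr12:55492648-55492897 (minus strand), where the match is on the opposite strand and begins 29 bases before the start. The Cxcl2 window is chr5:90903649-90903898 (plus strand), with the match beginning 97 bases before the start. The match describes letters, not binding.
Nfkbia: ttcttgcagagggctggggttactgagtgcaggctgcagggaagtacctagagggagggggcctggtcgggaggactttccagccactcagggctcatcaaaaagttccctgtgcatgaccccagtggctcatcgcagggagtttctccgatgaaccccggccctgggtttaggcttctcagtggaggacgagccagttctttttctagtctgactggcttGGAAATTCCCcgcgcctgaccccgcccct
Cxcl2: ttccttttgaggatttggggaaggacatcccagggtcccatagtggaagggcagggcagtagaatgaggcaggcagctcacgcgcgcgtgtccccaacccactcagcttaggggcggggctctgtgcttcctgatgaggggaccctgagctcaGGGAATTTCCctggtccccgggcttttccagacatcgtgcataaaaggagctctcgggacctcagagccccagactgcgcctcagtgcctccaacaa

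Among 20 immediate early genes, 9 were lower at ZT0 and 0 higher, against 6.63% and 7.78% of all genes, with a median difference of -0.22. Fosl1, which encodes the AP-1 subunit FRA1, was at 9.32, 9.75, 9.23 and 10.15 at ZT0 and at 11.71, 11.86, 11.19 and 11.64 at ZT20. It fell by 1.99 ± 0.25 (adjusted p = 1.39e-06), with no overlap between the groups. Nr4a1, an orphan nuclear receptor, fell by 0.95 ± 0.18, Ier3 by 0.84 ± 0.15, the growth regulator Myc by 0.64 ± 0.11 and the zinc finger factor Klf6 by 0.56 ± 0.08. The members that define the class did not pass: Fos differed by 0.10 (adjusted p = 0.113), Jun by -0.03 and Egr1 by 0.03. These 3 were named after their values were seen.

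Of the 17 clock genes measured, 6 were lower at ZT0 and 1 higher, against 6.63% and 7.78% of all genes. Among the repressors 3 of 8 were lower, with a median of -0.42 over the list. Cry1, which blocks the activators directly, was at 5.97, 6.24, 6.11 and 5.87 at ZT0 and at 7.46, 7.06, 7.34 and 7.44 at ZT20. It fell by 1.28 ± 0.17 (adjusted p = 4.35e-06). Bhlhe40, a repressor that competes for the E-box, fell by 1.48 ± 0.17 (adjusted p = 5.07e-07). Per2 was at 6.26, 6.68, 6.47 and 6.45 at ZT0 and at 7.30, 7.10, 7.27 and 7.46 at ZT20, and fell by 0.82 ± 0.13 (adjusted p = 4.62e-05). Its other probe set fell by 2.54. For all 3, every ZT0 array was below every ZT20 array.

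The other Per and Cry genes did not pass. Per1 differed by -0.56 ± 0.21 (adjusted p = 0.0649), Cry2 by -0.27 (adjusted p = 0.108) and Per3 by -0.11, with other probe sets of Per3 between -0.46 and 0.47. Ciart, a further repressor, differed by -0.21 (adjusted p = 0.171), with groups that did not overlap. Bhlhe41 differed by 0.01.

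Among the output factors, Nfil3, the repressor that opposes DBP and TEF at the D-box, was between 7.00 and 7.59 on the ZT0 arrays and between 8.80 and 9.46 on the ZT20 arrays. It fell by 1.83 ± 0.18 (adjusted p = 4.83e-08), the largest difference among the probe sets used for the 17 clock genes, where the other probe set of Per2 fell further. Tef, an activator at the same element, fell by 0.43 ± 0.11 (adjusted p = 0.00789), and Dbp (0.25, adjusted p = 0.343) and Hlf (0.01) did not pass. Among the activators and their nuclear receptors, Rora fell by 0.47 ± 0.07 (adjusted p = 2.23e-05), while its other probe sets ran from -1.17 to 0.22. Npas2, a partner of BMAL1, rose by 0.22 ± 0.07 (adjusted p = 0.0441), but the call was lost under 14 of 21 alternatives, among them every scaling tried and leaving out any of 6 arrays (adjusted p up to 0.175). Arntl was at 8.69, 8.97, 9.65 and 9.37 at ZT0 and at 8.42, 9.03, 9.21 and 8.11 at ZT20. These groups overlap, and the difference of 0.48 ± 0.28 did not pass (adjusted p = 0.282). Clock (-0.11) and Nr1d2 (-0.14) did not pass either.

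BMAL1 and CLOCK bind the E-box, CACGTG. In the 250 bases upstream, 5 of 15 clock genes with a promoter held it (33.3%: Bhlhe41, Ciart, Cry1, Per1 and Tef), against 6.05% of all promoters, 10.8% of the 928 genes called lower with a promoter and 7.54% of the 1088 called higher. Cry1 is shown as the repressor with a match that fell, at chr10:85185055-85185304 (minus strand, GRCm38.p6), with the E-box in capitals beginning 60 bases before the start. The D-box, TTATGTAA, was in 1 of the 15 promoters (Per3) and in 0.862% of all promoters.
Cry1: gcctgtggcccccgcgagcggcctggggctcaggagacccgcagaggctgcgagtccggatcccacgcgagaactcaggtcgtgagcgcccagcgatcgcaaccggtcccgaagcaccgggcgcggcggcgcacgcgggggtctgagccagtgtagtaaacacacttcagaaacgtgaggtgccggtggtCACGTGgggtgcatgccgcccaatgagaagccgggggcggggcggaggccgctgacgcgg

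The S phase genes that passed were all lower at ZT0, and the mitosis genes that passed were all higher. Of 24 S phase genes, 19 were lower and 0 higher, against 6.63% of all genes called lower, with a median of -0.53. Their mean level lay between 7.14 and 7.42 at ZT0 and between 7.69 and 8.03 at ZT20. Cdt1, which licenses replication origins, was at 7.93, 7.72, 7.71 and 7.54 at ZT0 and at 9.13, 8.97, 9.09 and 9.24 at ZT20. It fell by 1.38 ± 0.19 (adjusted p = 5.86e-06), with -1.37 and -0.07 in its other probe sets. Pola1, the catalytic subunit of DNA polymerase alpha, was at 6.64, 6.55, 6.44 and 6.07 at ZT0 and at 7.64, 7.21, 7.45 and 7.56 at ZT20, and fell by 1.04 ± 0.13 (adjusted p = 8.25e-07). Both genes separated the groups. Mcm4, a subunit of the replicative helicase, fell by 0.99 ± 0.15, and Pcna, the polymerase clamp, by 0.70 ± 0.10 (adjusted p = 5.86e-06). Slbp, which binds the stem-loop of histone mRNAs, fell by 0.59 ± 0.11, with -0.06 and -0.04 in its other probe sets. The count of 19 became 11 without ZT0 replicate 3 and 12 without ZT20 replicate 1.

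Of 27 mitosis genes, 7 were higher at ZT0 and 0 lower, against 7.78% of all genes called higher. All 27 differences were positive, with a median of 0.29, and the mean level lay between 7.90 and 8.02 at ZT0 and between 7.52 and 7.68 at ZT20. Kif20a, a kinesin of the central spindle, was at 8.49, 8.60, 8.47 and 8.78 at ZT0 and at 7.96, 7.61, 7.85 and 7.79 at ZT20. It rose by 0.79 ± 0.13 (adjusted p = 1.18e-04). Cdc20, the activator of the anaphase-promoting complex, was at 8.56, 8.77, 8.81 and 8.61 at ZT0 and at 7.66, 7.69, 8.19 and 7.98 at ZT20, a rise of 0.81 ± 0.17 (adjusted p = 0.00111). Neither gene had overlapping groups. Aurka, a spindle pole kinase, rose by 0.76 ± 0.15, Espl1, the protease separase, by 0.79 ± 0.21, and the kinetochore gene Cenpf by 0.83 ± 0.23 (adjusted p = 0.0115, and 0.0700 without ZT20 replicate 1). Mki67, a marker of cycling cells named after its value was seen, differed by 0.16 (adjusted p = 0.457).

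Promoters of G2 and M phase genes often carry a CHR element, TTTGAA, and CCAAT boxes. Among 22 mitosis genes with a promoter, 8 held TTTGAA in the 250 bases upstream on either strand (36.4%) and 20 held CCAAT (90.9%). The shares of all promoters were 16.3% and 34.5%, those of the genes called higher 11.6% and 35.4%, and those of the genes called lower 9.27% and 39.9%. Among 19 S phase genes the shares were 10.5% and 68.4%. Cdc20 and Espl1 are shown as the called mitosis genes holding TTTGAA with the smallest adjusted p, with the element in capitals. Cdc20 lies at chr4:118437344-118437593 (minus strand), the element beginning 18 bases before the start, and Espl1 at chr15:102296043-102296292 (plus strand), beginning 27 bases before it (RefSeq, GRCm38.p6).
Cdc20: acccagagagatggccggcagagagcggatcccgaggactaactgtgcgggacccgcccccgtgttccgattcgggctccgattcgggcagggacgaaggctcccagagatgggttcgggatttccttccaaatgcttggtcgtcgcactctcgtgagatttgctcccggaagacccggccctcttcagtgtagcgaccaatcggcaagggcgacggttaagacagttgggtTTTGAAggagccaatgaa
Espl1: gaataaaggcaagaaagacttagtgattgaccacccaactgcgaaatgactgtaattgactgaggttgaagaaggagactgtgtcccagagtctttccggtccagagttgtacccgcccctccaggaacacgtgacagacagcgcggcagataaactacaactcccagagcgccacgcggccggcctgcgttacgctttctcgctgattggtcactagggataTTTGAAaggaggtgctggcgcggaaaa

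Gadd45b, a growth arrest gene, had the smallest adjusted p of all genes tested. Of 13 growth arrest and p53 pathway genes, 7 were lower at ZT0 and 2 higher, against 6.63% and 7.78% of all genes, with a median of -0.40. Gadd45b, which stress and cytokines induce, was at 8.29, 8.40, 8.34 and 8.03 at ZT0 and at 10.15, 10.23, 10.04 and 10.12 at ZT20. It fell by 1.87 ± 0.13 (adjusted p = 2.35e-11), with little spread among the arrays of each time. Plk2, a polo-like kinase, fell by 1.85 ± 0.27 and Sesn2, a sestrin that restrains mTORC1, by 0.75 ± 0.13. Gadd45a, named after its values were seen, fell by 1.70 ± 0.44 (adjusted p = 0.00777). Phlda3, a p53 target that inhibits AKT, was at 8.09, 8.41, 8.11 and 7.94 at ZT0 and at 7.29, 7.24, 7.49 and 6.60 at ZT20, a rise of 0.98 ± 0.17 (adjusted p = 1.24e-04). Zmat3, another p53 target, rose by 0.53 ± 0.11. Members of the list therefore moved in both directions.

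Called genes of protein folding and endoplasmic reticulum stress were mostly lower at ZT0. Over all genes, 6.63% were called lower and 7.78% higher. Of 18 stress genes of the endoplasmic reticulum, 7 were lower and 1 higher, with a median of -0.23. Dnajb9, a co-chaperone of that compartment, was at 8.11, 7.79, 7.82 and 8.09 at ZT0 and at 9.40, 9.15, 9.13 and 9.54 at ZT20. It fell by 1.35 ± 0.17 (adjusted p = 1.54e-06), with no overlap. Hspa5, the chaperone BiP, fell by 0.85 ± 0.14 (adjusted p = 9.91e-05), Sdf2l1 by 0.66 ± 0.15 and Asns, the asparagine synthetase, by 0.49 ± 0.11. Atf4, the factor that drives amino acid response genes, fell by 0.89 ± 0.12 (adjusted p = 4.77e-06), with -0.13 in its other probe set. Of 11 heat shock genes, 5 were lower and 1 higher, and 3 were lower with a replicate block within the 8 arrays. Of the 5, Hspa8 fell by 0.19 on the probe set used and had another at 1.19 (adjusted p = 6.74e-04), with 0.14 as the mean of its probe sets. Dnajb1 fell by 0.21, a call lost under 5 of 21 alternatives. Hsp90aa1, the inducible HSP90, fell by 0.63 ± 0.15, Dnaja1 by 0.39 ± 0.08 and the small heat shock gene Hspb1 by 0.30 ± 0.05.

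Of 9 genes that glucocorticoids induce, 5 were lower at ZT0 and 1 higher, against 6.63% and 7.78% of all genes, with a median of -0.39. Errfi1, a feedback inhibitor of the EGF receptor, fell by 1.28 ± 0.25 (adjusted p = 5.59e-04). Tsc22d3, also called GILZ, fell by 0.80 ± 0.20 (adjusted p = 0.00537, with -0.43 and -0.20 in its other probe sets), the factor Cebpd by 0.73 and the kinase Sgk1 by 0.39 ± 0.11 (adjusted p = 0.0150, and 0.0531 without ZT20 replicate 4). Ddit4, an inhibitor of mTORC1, went the other way, with levels of 7.69, 7.69, 7.87 and 7.64 at ZT0 and of 6.26, 6.72, 6.88 and 7.25 at ZT20. It rose by 0.94 ± 0.19 (adjusted p = 8.13e-04).

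Among 15 TGF-beta and BMP genes, 5 were lower at ZT0 and 0 higher, against 6.63% of all genes called lower, with a median of -0.05. That median was -0.28 without the dimmest genes and -0.19 without control ZT20 replicate 1. The changes were large in few members. Bmp2, a ligand that restrains hair follicle stem cells, was at 7.86, 8.17, 7.79 and 7.86 at ZT0 and at 9.55, 10.19, 9.58 and 9.88 at ZT20, and fell by 1.88 ± 0.20 (adjusted p = 7.87e-08). The receptor Tgfbr1 fell by 1.09 ± 0.17, the ligand Tgfb3 by 0.83 ± 0.20 and Id3, a target of BMP signalling, by 1.06 ± 0.16. Skil, an inhibitor of SMAD signalling, fell by 1.70 ± 0.29. Of 16 Wnt genes, 2 were higher and 0 lower, against 7.78% of all genes called higher. Axin2, a feedback inhibitor and common readout of Wnt signalling, was at 8.85, 8.89, 9.28 and 8.80 at ZT0 and at 8.11, 8.40, 8.13 and 7.88 at ZT20. It rose by 0.83 ± 0.17 (adjusted p = 7.22e-04), with 0.72 in its other probe set. The other Wnt gene that passed was Lrp6, at 0.28 (adjusted p = 0.0476). That call was lost under 13 of 21 alternatives (adjusted p up to 0.351).

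**Figure D3:**
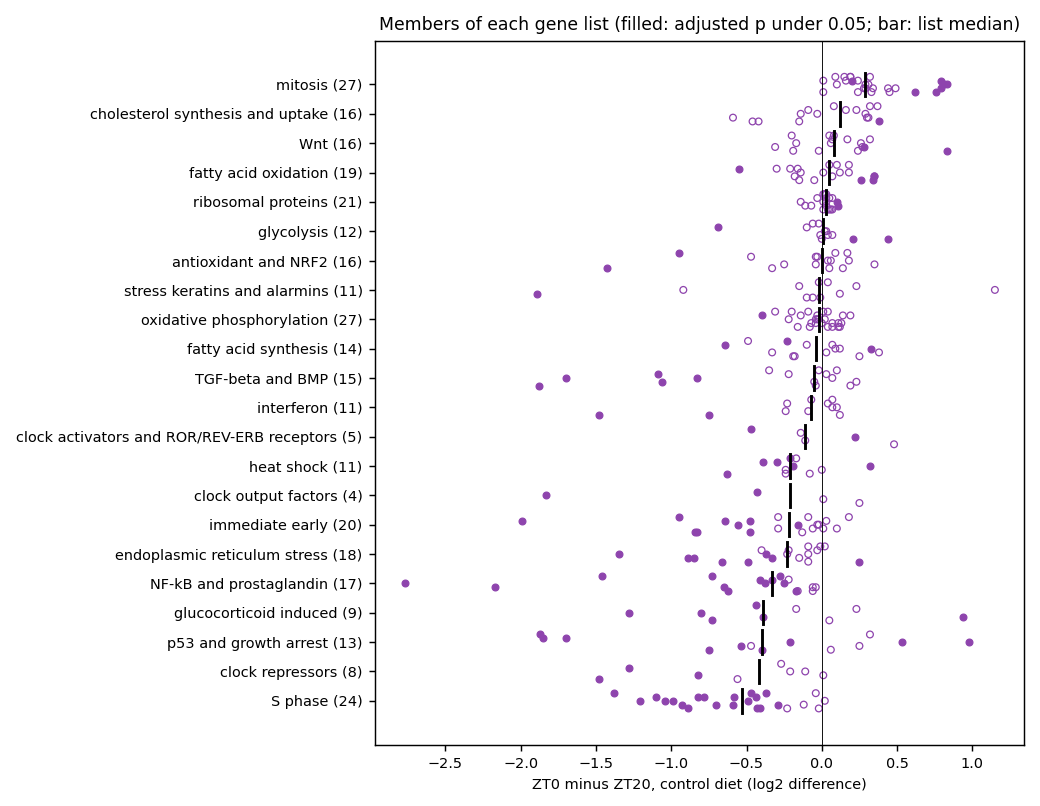
Difference between ZT0 and ZT20 in the control diet (x axis, log2) for every measured member of 22 gene lists (y axis, members in brackets), with filled points past the adjusted p threshold and black bars at list medians. S phase has the lowest median (-0.53) and mitosis the highest (0.29), while ribosomal protein and oxidative phosphorylation genes crowd around 0.

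Metabolic gene lists had medians near 0, from -0.04 for fatty acid synthesis to 0.12 for cholesterol genes. Over all genes, 14.4% were called in either direction. The share called was above that in the fatty acid oxidation, fatty acid synthesis and glycolysis lists. It was below that in the oxidative phosphorylation and cholesterol lists. Of 27 oxidative phosphorylation genes, 0 were higher and 1 was lower by limma, Cycs, which encodes cytochrome c, at -0.40 ± 0.06 (adjusted p = 4.50e-05). Among 19 fatty acid oxidation genes, 3 rose and 1 fell. They were Cpt1a, the gatekeeper of mitochondrial fatty acid import (0.35 ± 0.12, adjusted p = 0.0434), Eci1 (0.34 ± 0.10), Acaa1a (0.26 ± 0.08) and Etfdh (-0.55 ± 0.15). Each of these 4 calls ended when single arrays were left out, of which there were 6 for Cpt1a, 3 for Eci1, 5 for Acaa1a and 3 for Etfdh, with adjusted p up to 0.161, 0.123, 0.0969 and 0.0658. Of 12 glycolysis genes, Hk2, the inducible hexokinase, fell by 0.69 ± 0.14 (adjusted p = 0.00103), and Pfkfb3 (0.44 ± 0.13) and Aldoa (0.21 ± 0.06) rose. Both rises missed the threshold without ZT0 replicate 1 (adjusted p = 0.0553 and 0.0590). Of 14 fatty acid synthesis genes, the desaturase Scd1 rose by 0.33 ± 0.09, and Acsl3 (-0.64 ± 0.18) and Fads2 (-0.23 ± 0.07) fell. Scd1 missed it without ZT20 replicate 1 (adjusted p = 0.0587), Acsl3 without replicate 2 of either time (up to 0.0744) and Fads2 without ZT0 replicates 2 or 3 or ZT20 replicate 1 (up to 0.202), and the other probe sets of Fads2 gave 0.07 and 0.08. Of 16 cholesterol genes, 1 rose, the mevalonate kinase Mvk (0.38 ± 0.10).

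For the antioxidant, ribosomal protein and interferon counts that follow, the shares of all genes were 6.63% called lower and 7.78% called higher. Of 16 antioxidant genes, 2 fell and 0 rose. Txnrd1, the cytosolic thioredoxin reductase, was at 9.25, 9.39, 9.31 and 9.04 at ZT0 and at 10.57, 10.85, 10.51 and 10.77 at ZT20. It fell by 1.43 ± 0.22 (adjusted p = 3.06e-05), and Srxn1, the sulfiredoxin, fell by 0.95 ± 0.24. Of 21 ribosomal protein genes, 2 rose, Rpl30 by 0.11 ± 0.03 and Rps2 by 0.10 ± 0.03, and neither call held under any of the 3 scaling alternatives. Of 11 interferon genes, 2 fell, the factor Irf1 by 1.48 ± 0.16 (adjusted p = 2.05e-07) and the GTPase Gbp2 by 0.75 ± 0.21 (adjusted p = 0.0125, and 0.0605 without ZT20 replicate 4).

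The rises at ZT0 were smaller than the falls, and the largest were those of Zfp950, Neat1 and Pisd-ps3. Zfp950, a zinc finger gene, was at 7.65, 7.41, 7.06 and 7.56 at ZT0 and at 5.40, 5.68, 5.87 and 5.62 at ZT20. It rose by 1.78 ± 0.24 (adjusted p = 3.70e-06), or 3.42-fold, with 0.87 in its other probe set. Neat1, the long noncoding RNA that scaffolds nuclear paraspeckles, was at 12.02, 11.91, 12.06 and 11.82 at ZT0 and at 10.52, 10.44, 10.39 and 10.24 at ZT20. It rose by 1.55 ± 0.17 (adjusted p = 1.08e-07), and the arrays of each time lay close together. Alox12e, an epidermal lipoxygenase, was at 10.97, 10.58, 11.13 and 11.41 at ZT0 and at 9.63, 9.75, 9.71 and 10.06 at ZT20, a rise of 1.24 ± 0.20 (adjusted p = 7.17e-05).

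Arrdc3, an alpha-arrestin that directs membrane receptors to degradation, rose by 1.25 ± 0.25 (adjusted p = 7.27e-04). Timp2, an inhibitor of matrix metalloproteinases, rose by 1.15 ± 0.24 (adjusted p = 0.00131), with 0.37 to 1.00 in its other probe sets. Car12, a membrane carbonic anhydrase, was at 9.01, 8.99, 9.06 and 8.93 at ZT0 and at 7.65, 8.01, 7.64 and 7.42 at ZT20, a rise of 1.32 ± 0.17 (adjusted p = 1.76e-06). Its other probe set gave 0.28 (adjusted p = 0.199). Other probe sets were also near 0 or low for Cwf19l2 (1.38 against 0.07), Tnrc18 (1.28 against 0.39 and 0.09), the rhomboid protease gene Rhbdl2 (1.28 against 0.35), Lin7b (1.19 against 0.12 to 0.40), Parp11 (1.19 against 0.29) and the RNA editing enzyme gene Adarb1 (1.15 against 0.20 and -0.09). Zfp418 (1.24 ± 0.26) and Tmppe (1.16 ± 0.20) have 1 probe set each. Pisd-ps3, at 1.39 ± 0.24, is a pseudogene that may share probes with its parent gene.

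Most basal keratinocyte markers moved little in level, though the share called was above the 14.4% of all genes called in either direction. Of 12 basal keratinocyte genes, 2 rose and 1 fell, with a median of 0.01 and a mean level of 11.5 to 11.7 at both times. Krt5 rose by 0.14 ± 0.03 (adjusted p = 0.00800) and Trp63, the master factor of stratified epithelia, by 0.22 ± 0.06. Both calls were lost with only the groups compared in the fit and with the replicate block within them (adjusted p up to 0.213 and 0.107). Krt5 also lost its call after array medians of the tested genes were subtracted. Itga6, the integrin used to sort basal cells, fell by 0.39 ± 0.13 (adjusted p = 0.0441, with the call lost without any of 6 arrays and adjusted p up to 0.135). Of 13 bulge genes, 1 rose and 1 fell, close to the share of all genes called. Nfatc1, which holds bulge stem cells quiescent, was at 9.16, 8.88, 9.03 and 9.56 at ZT0 and at 9.99, 10.40, 9.90 and 10.07 at ZT20. It fell by 0.94 ± 0.14 (adjusted p = 1.96e-05), and Cd34 rose by 0.73 ± 0.19 (adjusted p = 0.00765). Sox9 differed by 0.49 (adjusted p = 0.0801) and Krt15 had a mean of 12.02 at both times.

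Of 18 suprabasal genes, 4 rose and 0 fell, against 7.78% of all genes called higher, with a median of 0.22. They were Krt77 (0.24 ± 0.05), Krt10 (0.15 ± 0.04), the desquamation protease Klk7 (1.12 ± 0.38, adjusted p = 0.0442) and Calml3 (0.66 ± 0.23, adjusted p = 0.0481). The mean level of the list lay between 9.14 and 9.33 at ZT0 and between 9.04 and 9.22 at ZT20, so the groups overlapped, and the count ranged from 1 to 8 over the alternatives. It was 1 without ZT0 replicate 4 or ZT20 replicate 3 and 2 without ZT0 replicate 1, ZT0 replicate 3, ZT20 replicate 2 or ZT20 replicate 4. Krt16, a keratin induced in activated and wounded epidermis, was at 7.79, 7.61, 7.19 and 7.36 at ZT0 and at 10.15, 8.85, 8.95 and 9.55 at ZT20. It fell by 1.89 ± 0.37 (adjusted p = 6.22e-04) and was the only one of 11 stress keratin and alarmin genes to pass. Over all genes, 6.63% were called lower, and the median of this list was -0.02. Krt6a, another keratin of the list, went the other way by 1.15 without passing (adjusted p = 0.0691), with groups that did not overlap. Its other probe sets gave 0.50 and 0.71 (adjusted p = 0.0474 and 0.0650).

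Few markers of other cell types passed, where 6.63% of all genes were called lower and 7.78% higher. Of 13 Langerhans and leukocyte genes, 2 fell and 0 rose, with a median of -0.17. The mean level of the list lay between 6.92 and 7.13 at ZT0 and between 7.14 and 7.24 at ZT20, so it moved with the NF-kB genes, and its part in their fall was not tested. H2-Ab1, an MHC class II gene of antigen-presenting cells, was at 8.56, 8.31, 8.89 and 8.44 at ZT0 and at 9.49, 9.14, 9.42 and 9.31 at ZT20, and fell by 0.79 ± 0.19 (adjusted p = 0.00421). Its other probe sets gave -0.30 and -0.23. The class II genes H2-Aa and H2-Eb1 of the same list did not pass. Their means were 8.54 and 8.51 at ZT0 and 8.62 and 8.57 at ZT20. Cd74 differed by -0.35 without passing (adjusted p = 0.0788). Cd52, a leukocyte surface gene, fell by 0.40 ± 0.12, whereas Ptprc differed by 0.01 (adjusted p = 0.960) and Cd207 by -0.22 (adjusted p = 0.216). Of 9 T cell genes 1 fell (Cd3d, -0.22 ± 0.07), of 8 melanocyte genes 1 fell (Tyr, -0.21 ± 0.06) and of 8 muscle genes 1 fell (Myh1, -0.20 ± 0.06). Of 6 sebaceous genes 1 rose (Plin2, 0.37 ± 0.10) and of 3 erythroid genes 1 rose (Slc4a1, 0.12 ± 0.04). These 5 calls and that of Cd52 were each lost without at least 1 array: Plin2 without ZT20 replicate 2 and Tyr without ZT20 replicate 3, and the others without 3 or 4 arrays, with adjusted p up to 0.156. No gene passed by limma among 12 fibroblast, 9 endothelial, 10 hair matrix, 4 adipocyte and 7 Schwann and Merkel cell markers, with medians from -0.04 to 0.05. Unadjusted p under 0.05 were 2, 2, 1, 1 and 0 of them.

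The other time points of the control diet place these levels in the day. Bhlhe40 had group means of 9.20, 10.67, 9.18, 10.11, 10.36 and 10.67 from ZT0 to ZT20 in steps of 4 h. Gadd45b had means of 8.26, 10.38, 8.20, 8.61, 9.60 and 10.14 in the same order, and Nfil3 of 7.31, 8.86, 7.24, 7.13, 8.52 and 9.13. For these 3 genes ZT0 was low between a high ZT20 and a high ZT4. Per2 had means of 6.47, 6.74, 6.76, 8.48, 8.32 and 7.28, with its highest group at ZT12. Cdt1 had means of 7.73, 8.41, 7.47, 9.20, 9.28 and 9.11, and Cdc20 of 8.69, 8.39, 7.18, 7.30, 7.48 and 7.88. Cdt1 was higher through the dark phase, and Cdc20 had its highest mean at ZT0. Each collection day held 1 time point, and ZT8 has 2 arrays.

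**Figure D4:**
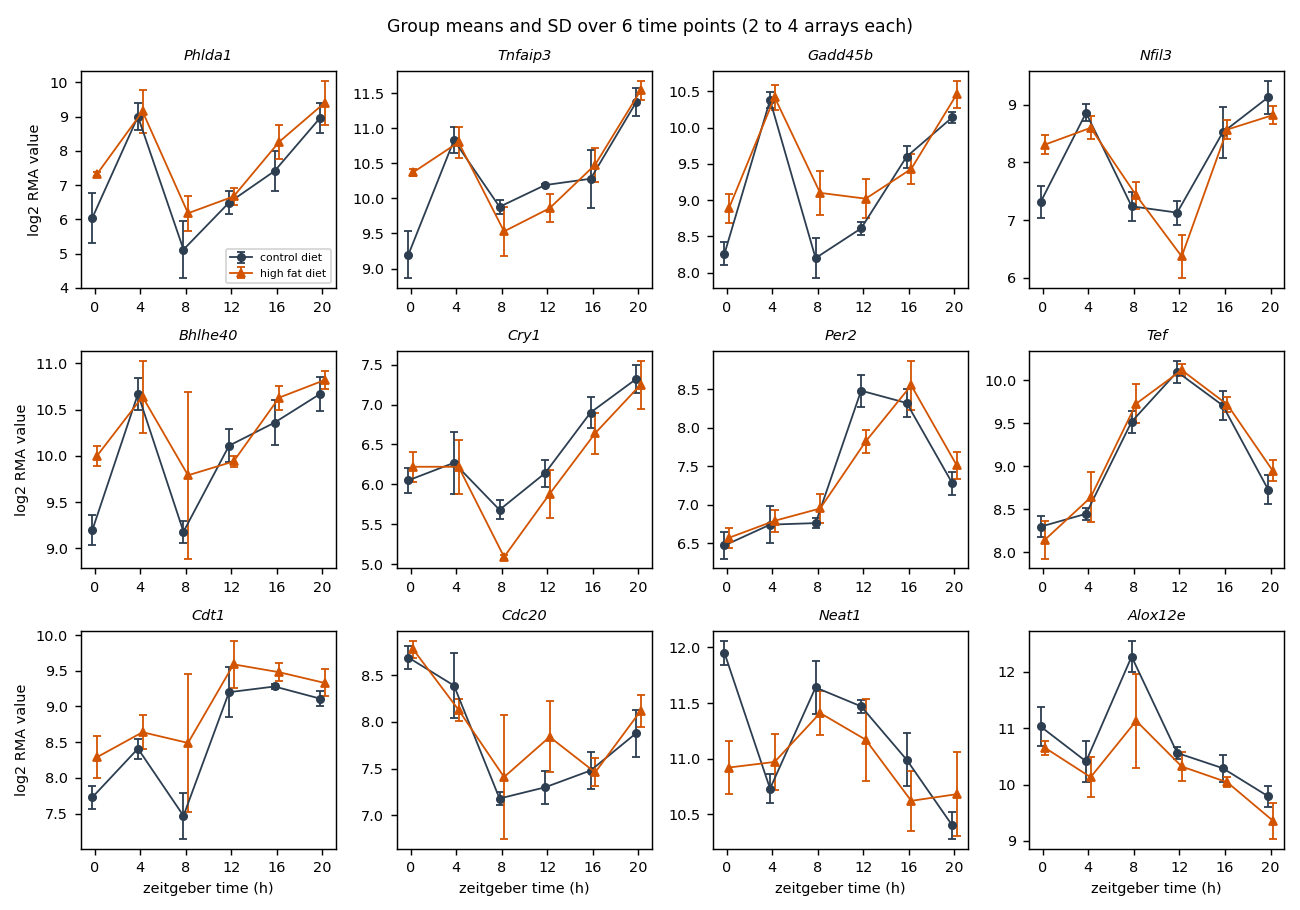
Group mean and SD of log2 RMA level (y axis) against zeitgeber time in hours (x axis) for 12 genes, with the control diet in dark circles and the high fat diet in orange triangles, 2 to 4 arrays per point. In the control diet Phlda1, Gadd45b, Nfil3 and Bhlhe40 are low at ZT0 (9.20 for Bhlhe40) between high levels at ZT20 and ZT4, Per2 and Tef are highest at ZT12, and Cdc20 and Neat1 are highest at ZT0.

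The same contrast in the high fat diet rests on arrays that share no sample with the control diet. The labels do not say whether both diets of a time point were collected on the same day, so a day effect common to both diets cannot be told apart from the time point in the values that follow. Of 17097 genes, 1190 (6.96%) passed, 678 (3.97%) higher at ZT0 and 512 (2.99%) lower. Called in both diets in the same direction were 484 genes, which is 19.6% of the control calls and 40.7% of the high fat calls, and 6 were called in opposite directions. Of the control calls, 2081 (84.5%) had the same sign in the high fat diet, against 60.5% of the genes not called in the control diet. The high fat count fell to 469 without its ZT0 replicate 2, 562 without ZT0 replicate 3, 686 without ZT20 replicate 3 and 777 without ZT20 replicate 4. The higher genes were 57.0% of its calls as deposited and 46.9% after quantile normalization of the tested genes.

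Several of the gene groups showed the same direction in both diets. Over all genes in the high fat diet, 2.99% were called lower and 3.97% higher. In the high fat diet 13 of the 24 S phase genes were lower and 0 higher (median -0.44), 6 of the 27 mitosis genes were higher and 0 lower (median 0.33), and 9 of the 17 NF-kB and prostaglandin genes were lower and 0 higher (median -0.34). Gadd45b fell by 1.57 (adjusted p = 1.89e-08), Nfkbia by 0.65 (adjusted p = 5.82e-06), Per2 by 0.95 (adjusted p = 1.90e-04) and Cry1 by 1.03 (adjusted p = 0.00125). Alox12e rose by 1.29 (adjusted p = 8.53e-04) and Arrdc3 by 1.18 (adjusted p = 0.00781). Of the 9 glucocorticoid induced genes 1 was higher and 0 lower in the high fat diet (median -0.02), and of the 11 heat shock genes 0 were called by limma in either direction, with 5 at an unadjusted p under 0.05. The difference between the diets was tested gene by gene, not for these lists.

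In the test of the difference itself, 88 genes (0.515%) passed, and 65 of them were control calls. The count rests on single arrays: without control ZT0 replicate 4 it was 54, without control ZT20 replicate 1 it was 44 and without control ZT20 replicate 4 it was 34. Without high fat ZT0 replicates 2 and 3 in turn it was 33 and 13, and without high fat ZT20 replicates 1, 2 and 3 it was 44, 36 and 58. Ccrl2, an atypical receptor that binds chemerin, had the smallest adjusted p. In the control diet it was at 6.25, 6.12, 6.40 and 6.19 at ZT0 and at 8.46, 8.34, 8.46 and 8.54 at ZT20, and fell by 2.21 ± 0.19 (adjusted p = 1.37e-09). In the high fat diet it was at 7.61, 7.76 and 7.89 at ZT0 and at 8.07, 7.73, 8.10 and 8.14 at ZT20, a difference of -0.25 (adjusted p = 0.482). The control groups lay far apart and the high fat groups overlapped, and the difference between diets was -1.96 (adjusted p = 8.43e-04).

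Of the largest changes and list members named above, Ccrl2 and 5 others differed between diets. Neat1 rose by 1.55 in the control diet and differed by 0.24 in the high fat diet (difference 1.31, adjusted p = 0.0115). Nfil3 fell by 1.83 and differed by -0.51 (difference -1.31, adjusted p = 0.0203), Dnajb9 fell by 1.35 and differed by -0.25 (difference -1.10, adjusted p = 0.0368) and Rhbdl2 rose by 1.28 and differed by 0.19 (difference 1.09, adjusted p = 0.0416). Tnfaip3 fell in both diets, by 2.17 and 1.16 (difference -1.01, adjusted p = 0.0493). Leng8 (0.56 against -0.17), Apbb3 (1.00 against -0.31) and Abcc5, an organic anion transporter gene (1.01 against -0.23), rose in the control diet and not in the high fat diet, and the difference passed (adjusted p = 0.00359, 0.0103 and 0.0105). Other probe sets of Abcc5 ran from -0.13 to 1.14. Mtm1, a phosphoinositide phosphatase gene, fell in the control diet and rose in the high fat diet (-0.45 against 0.39), as did Fam221a (-0.24 against 0.43), whose control call was lost without any of 5 arrays (adjusted p up to 0.222). Rusf1 (0.20 against -0.82) and Zfp740 (-0.05 against 0.64) passed in the high fat diet and not in the control diet. For Phlda1 (-2.91 against -2.09) and Ptgs2 (-2.77 against -1.12) the difference between diets did not pass (adjusted p = 0.523 and 0.229).

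**Figure D5:**
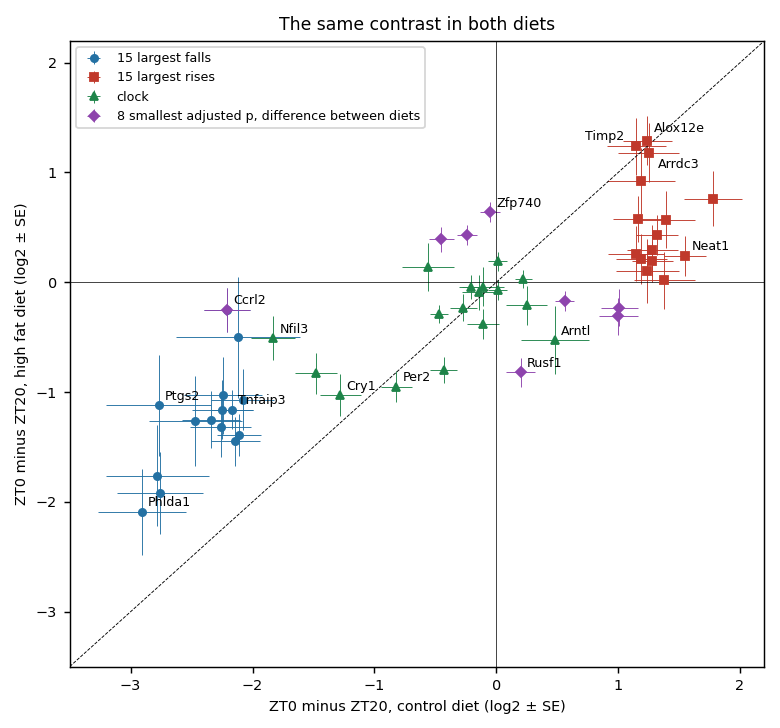
ZT0 minus ZT20 in the control diet (x axis) and in the high fat diet (y axis), log2 ± SE, for the 15 largest falls, the 15 largest rises, the clock genes and the 8 genes with the smallest adjusted p for the difference between diets; the dashed line marks equal differences. Falls such as Phlda1 and rises such as Alox12e lie on the same side of 0 in both diets, Ccrl2 sits at -2.21 and -0.25, and Neat1 at 1.55 and 0.24.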

How the data were processed

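Total RNA of epidermal stem cells was amplified from 25 ng by WTA2 for 17 cycles, and 8 µg of labelled cDNA was hybridised to Affymetrix arrays, per the labels' protocols. The deposited values are on the log2 scale and were made by the authors with RMA, per the submitters' processing notes; the sources used here give neither its version nor any batch adjustment, so both are not given. Of 45141 probe sets, 28898 had 1 gene, 551 had several and 15692 had none in the platform annotation used here. For the 7180 genes with over 1 probe set, the one with the highest mean over all 41 arrays was kept. This left 17097 genes, 16936 of them in the RefSeq gene table. No dim genes were removed, 0 pairs of arrays held identical values and 0 columns were left unmapped.

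The test was limma (version 3.58.1; R 4.3.3, data.table version 1.17.8), with a mean for each of the 12 diet and time groups over all 41 arrays, with 29 residual degrees of freedom and 2.63 prior ones. The contrasts were ZT0 minus ZT20 in each diet and the difference between them, adjusted over all genes. Two-sided exact permutation of 4 against 4 arrays cannot go below 0.0286, so no such test was made. The scripts were tested on simulated data.

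Genes were named as the 15 largest rises and 15 largest falls among calls with groups apart, passing over predicted genes, all measured clock genes, up to 5 members of each list by adjusted p and 8 genes for the difference between diets. A further 14 were named after their values were seen and are given as such or as cell markers. H2-Aa and H2-Eb1 were also named after their values were seen. The comparison, the members and the lists were chosen with earlier results of these data known. The NF-kB motif and the replicate block within the 8 arrays were chosen after seeing the data. Promoters are from RefSeq (GRCm38.p6), 1 start per gene. Plots used matplotlib 3.10.9 (Python 3.11.15). Some genes are not reported here.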

Additional observations from a re-analysis of the deposited data

Results flagged for a closer look

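Among 145 of the genes named in the text, the 4 arrays of each control group were checked for 1 array far from the other 3. Of the 290 groups, 12 held such an array, and chance gives about 1 in 20 groups. ZT20 replicates 1 and 2 held 3 each, ZT0 replicates 2 and 3 held 2 each and ZT0 replicates 1 and 4 held 1 each.

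At ZT0, Cwf19l2 was at 6.65 on replicate 2 (others 7.50 to 7.67) and Calml3 at 7.30 on the same array (others 7.87 to 7.94). Pmp22 was at 7.03 on replicate 3 (others 7.84 to 7.98) and Asns at 8.24 (others 8.45 to 8.47). Mtm1 was at 5.53 on replicate 1 (others 5.16 to 5.20), and Rpl30 was at 12.47 on replicate 4 (others 12.39 to 12.40). At ZT20, Per3 was at 7.96 on replicate 1 (others 7.63 to 7.67), Fads2 at 7.24 (others 6.83 to 6.89) and Sox9 at 9.32 (others 8.75 to 8.82). On replicate 2, Dbp was at 7.07 (others 6.71 to 6.73), Pcna at 10.49 (others 10.75 to 10.80) and Cd52 at 8.15 (others 7.92 to 7.94).

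For 13 named genes the ZT0 minus ZT20 difference itself differed between the diets (limma, Benjamini-Hochberg). Control minus high fat was 1.31 for Neat1 (adjusted p = 0.0115), 1.09 for Rhbdl2 (0.0416), 0.73 for Leng8 (0.00359), 1.01 for Rusf1 (0.00933), 1.31 for Apbb3 (0.0103) and 1.24 for Abcc5 (0.0105). It was -1.96 for Ccrl2 (8.43e-04), -1.01 for Tnfaip3 (0.0493), -1.31 for Nfil3 (0.0203), -1.10 for Dnajb9 (0.0368), -0.69 for Zfp740 (0.00933), -0.67 for Fam221a (0.00933) and -0.84 for Mtm1 (0.0105).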

How the results depend on the processing

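The counts as reported were 2464 genes in the control diet, 1190 in the high fat diet and 88 for the difference between diets. They stayed within 1.5 times of these with probe sets of a gene averaged, without the genes of lowest mean level, with trended and robust eBayes, after array medians of all probe sets or of the tested genes were subtracted, after quantile normalization and without the ZT8 arrays. Testing each probe set on its own, over 45141 probe sets, gave 6662, 2891 and 312. Array weights gave 2216 for the high fat diet and 259 for the difference, and the first residual component as a covariate gave 191 for the difference. With only the arrays of the groups compared, the control count was 1856, and 1599 of these were among the 2464 reported. The high fat count was then 788 and the difference 34, with fewer arrays in each fit. Leaving out 1 array at a time gave 1809 to 2306 in the control diet, 469 to 1169 in the high fat diet and 13 to 123 for the difference. Apart from the arrays left out or the features counted, the cause of these moves was not tested.

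Replicate numbers are shared between groups in the labels, but same-numbered arrays did not deviate together. The correlations of their deviations from the group means, over all genes, were 0.0350, -0.155, 0.103 and -0.0364 for replicates 1 to 4. No pairing was seen in these values, which cannot exclude one that touches only part of the genes. With the number as a replicate block the counts were 2301, 852 and 70. Within the 8 control arrays alone, an alternative chosen after seeing the data, the replicate block gave 1390.

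Of 226 named genes, 124 were called, and 87 of these passed under every alternative run. The other 37 lost the call under at least 1, and 26 genes not called passed under at least 1. The difference of Hspa8, -0.19 as reported (adjusted p = 0.0123), was 0.14 with the mean of its probe sets (adjusted p = 0.287). The calls of Adarb1, Mcm4, Tsc22d3, Mvk, Cd34 and Krt77 ended under the block within the 8 arrays only. Signal over background was unknown, so how far dim probe sets limit these values was not tested.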

Other observations

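For 653 genes called higher at ZT0 that have a further probe set, the next brightest probe set had the same sign in 530 (81.2%) and was called higher in 185 (28.3%), with medians of 0.40 for the probe set used and 0.17 for the next. For 553 genes called lower, the next probe set had the same sign in 477 (86.3%) and was called lower in 266 (48.1%), with medians of -0.49 and -0.36. Among the 15 largest rises with a further probe set, Cwf19l2, Car12, Rhbdl2, Lin7b and Adarb1 had no other probe set past the threshold. Tnrc18 and Timp2 passed in some of the others, and Zfp950, Pisd-ps3 and Parp11 passed in every probe set they have. Among the 15 largest falls with a further probe set, Nipal1, Ptgs2, Tnfaip3, Azin1 and Dio2 passed in every probe set. Uap1 did not pass in all of its probe sets. Whether the rises and falls differ in this way was not tested.

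The first principal component of the 8 arrays ran from -21.3 to -15.4 at ZT0 and from 12.6 to 21.4 at ZT20. On the second, with 13.2% of the variance, ZT20 replicate 2 stood at -20.4.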
